A study of Mus musculus with 9 samples.

Results

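Quiescent MEFs (fibroblasts cultured from mouse embryos) that carry p27CK were compared with quiescent MEFs titled p27KO, on 3 microarrays each. Both are genotypes of Cdkn1b, the gene for p27. They are called CK and KO here, as is wild type WT, and the arrays were chosen by their titles. They are 6 of the 9 arrays of the study, and the other 3 are from WT cells under the same regime. The culture medium held 10% serum, and starvation, with no serum at all, lasted 72 h for every genotype. In published work p27CK is a mutant p27 with lost binding to cyclins and to cyclin-dependent kinases (CDKs), while the labels give the name alone. The extraction protocol, the same for every sample, mentions wild-type or delta51 mice without tying delta51 to either mutant. The comparison asks how cells whose p27 cannot bind cyclin-CDK differ from cells titled as having no p27. Values are log2 probe set levels, so a difference of 1 is a 2-fold difference. Of 19937 genes with a probe set, the 11962 with a mean level of at least 7.24 over the 9 arrays were tested, so a gene that was bright in 1 genotype alone could pass.

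p27 belongs to the Cip/Kip family of cell cycle inhibitors. It binds cyclin-CDK complexes, above all those of cyclin E or A with Cdk2, and holds cells in G1 when growth factors are withdrawn. It is itself removed when cells re-enter the cycle, by the ubiquitin ligase SCF with its subunit Skp2. Apart from CDKs, p27 is known to bind RhoA and the microtubule regulator stathmin, and to act with p130 (Rbl2) and E2F4 on promoters. A p27 that cannot bind cyclin-CDK keeps part of these other functions, which is why mice and cells with the CK form have been set beside the knockout.

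The labels do not say if arrays of 1 genotype stem from different cultures or embryos. The spread that enters the p-values is thus that of arrays and may be technical, and genotype and culture cannot be told apart. Pearson correlations across probe sets were 0.996 to 0.997 among CK arrays, 0.996 to 0.998 among KO arrays and 0.964 to 0.969 between them. The median SD of a gene over 3 arrays was 0.0849 in CK and 0.0673 in KO. Xist, the RNA of the inactive X chromosome, was at 12.11 ± 0.09 in CK and 12.61 ± 0.14 in KO (SD, n = 3). Eif2s3y, a Y-linked gene, lay at 4.93 and 4.99, near the lowest level on the arrays, in CK and KO.

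Cdkn1b, on chromosome 6, was examined first. Its brighter probe set read 10.99, 11.14 and 11.16 on the 3 CK arrays, 7.44, 7.25 and 7.45 on the KO arrays and 11.42, 11.50 and 11.47 on the WT arrays. Every CK array lay far above every KO array, and both stood below WT. The difference between CK and KO was 3.72 (SE 0.07, 13.2-fold, limma adjusted p = 5.74e-11). With 3 arrays a side, an exact permutation test (two-sided) gave p = 0.1, the lowest it allows. The KO level is close to 7.24, the level needed for testing, where background compresses differences, so the fold is that of measured values and not of RNA. A dim probe set of the same gene read 6.96, 7.13 and 7.16 in CK and 7.67, 7.57 and 7.58 in KO, with no overlap and the opposite sign (difference -0.52). Which part of the gene each probe set covers, and which part the KO allele lacks, is not given in the sources used here. The KO label is thus borne out by the brighter probe set alone.

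Of the 11962 genes tested, 7439 (62.2%) differed between CK and KO at a limma adjusted p under 0.05. CK was higher for 3532 of them (29.5% of genes tested) and lower for 3907 (32.7%). The 3 CK arrays did not overlap the 3 KO arrays for 8076 genes (67.5%). Most differences were small. The called genes had a median absolute difference of 0.49, and the median difference of all tested genes was -0.02. At least 2-fold differences were called for 1489 genes (12.4%), 845 higher and 644 lower in CK, at least 4-fold ones for 452 and at least 16-fold ones for 48. A count of called genes in a list has to be read against these shares, since a list in which about 3 in 10 members are higher and 3 in 10 lower is like the array as a whole. In bulk RNA, fewer cells that make a transcript and less of it in each cell cannot be told apart.

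**Figure D1:**
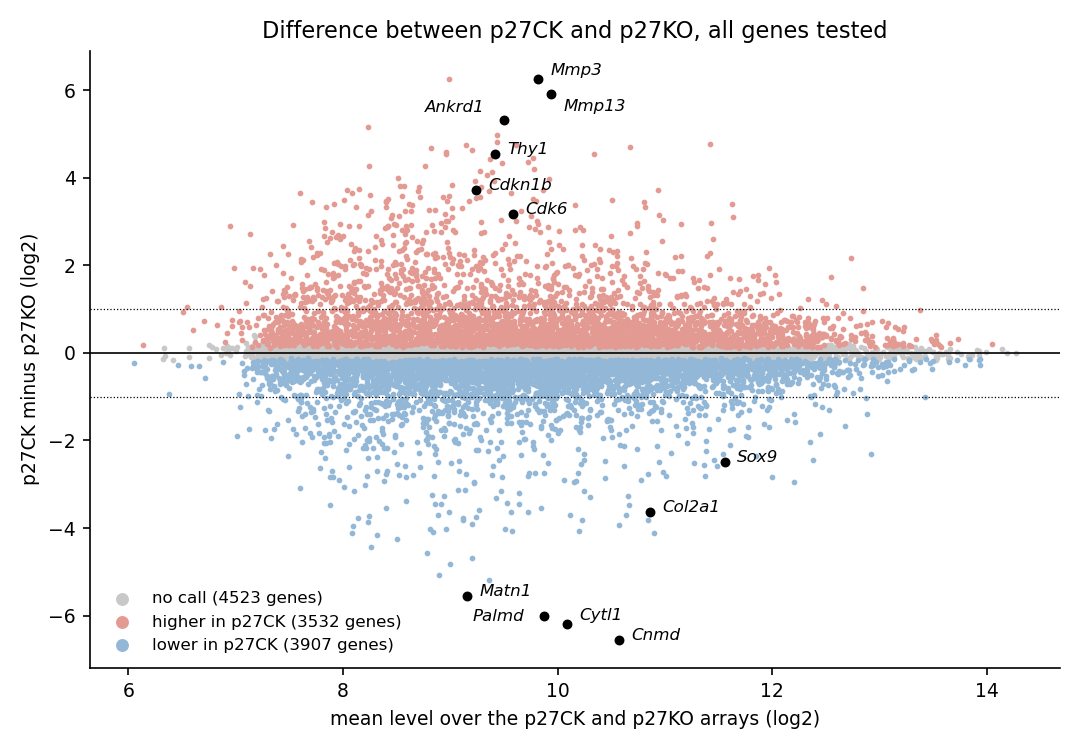
Difference between CK and KO (vertical axis, log2) against the mean level over the 6 arrays (horizontal axis, log2) for the 11962 genes tested. Red points are higher in CK, blue points lower and grey points without a call at a limma adjusted p of 0.05. Dotted lines mark 2-fold, and the named genes range from Mmp3 at 6.26 to Cnmd at -6.55.

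The 20 largest rises in CK relative to KO were taken among called, named genes without overlap. Mmp3, the protease stromelysin-1, read 13.04, 12.95 and 12.87 on the CK arrays and 7.88, 5.93 and 6.25 on the KO arrays. KO replicate 1 stood well above the other KO arrays and still far below CK. The difference was 6.26 (SE 0.39, 76.8-fold, limma adjusted p = 1.99e-07), and without KO replicate 1 it was 6.86, or 116-fold. As with Cdkn1b, the KO level lies in the range where background compresses differences, and the same holds for other genes here with a mean below 7.24 in 1 genotype. Mmp13, the collagenase of cartilage and bone, read 13.02, 12.95 and 12.74 against 8.06, 6.45 and 6.44, and again KO replicate 1 was the highest KO array. Its difference was 5.92 (SE 0.35). The WT level set these neighbours apart, with 13.13 ± 0.18 for Mmp3, as high as CK, and 7.79 ± 0.17 for Mmp13, not far from KO. Ankrd1, a nuclear ankyrin repeat protein and a well-known YAP target, read 12.24, 12.07 and 12.18 in CK and 6.95, 6.62 and 6.95 in KO (difference 5.32, SE 0.10). It was at 6.53 ± 0.10 in WT, so the high level stood in CK. Dkk2, a secreted Wnt antagonist, was 4.98 higher, the matrix protein dermatopontin (Dpt) 4.70 and the cornea proteoglycan keratocan (Kera) 4.59. All 3 were low in WT as well, between 7.14 and 8.77.

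Thy1, the surface glycoprotein used to mark fibroblasts, read 11.69, 11.76 and 11.64 in CK and 7.23, 6.85 and 7.33 in KO (difference 4.56, SE 0.12). It was at 11.73 ± 0.19 in WT, so the KO arrays were the low group. Crabp1, a retinoic acid binding protein, stood likewise at 13.81 ± 0.14 in CK, 9.03 ± 0.72 in KO and 14.03 ± 0.03 in WT. CK and WT were likewise high and KO low for the cytochrome Cyp2f2 (11.85, 7.02 and 11.70 in CK, KO and WT), for Renbp (11.51, 6.89 and 11.28) and for the chemokine Ccl2 (11.90, 7.54 and 12.24). The large proteoglycan versican (Vcan) was at 11.98 ± 0.28 in CK, 7.24 ± 0.28 in KO and 10.63 ± 0.57 in WT. Egfl6, a secreted EGF-repeat protein, was 4.45 higher in CK than in KO and highest in WT, at 13.74. The remaining genes of the 20 were Cyp4a12b, Pgm5, Hoxd13, Grem1, Lrrc15, Mmp10 and Map1b, with differences from 5.17 to 4.34.

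The 20 genes that were lowest in CK relative to KO included 4 genes of cartilage among the first 5. Cnmd (chondromodulin), a cartilage protein that inhibits vessel growth, read 7.13, 7.28 and 7.47 on the CK arrays and 13.85, 13.84 and 13.86 on the KO arrays. It was at 13.33 ± 0.01 in WT, so CK was the group without it. The difference was -6.55 (SE 0.08, 93.9-fold, limma adjusted p = 4.63e-12). Cytl1, a secreted cytokine-like protein of cartilage, read 6.95, 6.91 and 7.09 in CK and 13.10, 13.10 and 13.36 in KO (difference -6.20). Matn1, the cartilage matrix protein matrilin-1, read 6.33, 6.38 and 6.43 against 11.71, 11.75 and 12.36 (difference -5.56). Matn3, another matrilin, had a difference of -5.19. Unlike Cnmd, these 3 were low in WT too, between 6.42 and 7.40, so KO was the high group. Palmd, palmdelphin, a cytoplasmic protein, read 6.77, 6.88 and 6.94 against 12.98, 12.82 and 12.85, with 7.39 in WT. Sorbs2, an adaptor of stress fibres, and Camk4, a calcium-dependent kinase, showed the same order, with WT at 6.58 and 6.22. The growth factor Clec11a, the Wnt-binding protein Frzb and the carbonyl reductase Cbr2 were at 10.72, 11.63 and 12.78 in WT, close to their KO levels of 11.06, 11.61 and 12.96. Srpx, Stk32b, Cxcl15, Chodl, Cd80, Pax9, Tox, Rgs4, Fzd9 and Baiap2l1 completed the 20, with differences from -5.06 to -4.02. Cxcl15, a lung and epithelial chemokine, varied in KO, at 11.06, 11.27 and 9.55, with KO replicate 3 the lowest.

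WT was on neither side as a rule. Of the 845 genes called at least 2-fold higher in CK, WT lay between CK and KO for 513, above both for 170 and below both for 162. Of the 513, WT was nearer to CK for 214 and nearer to KO for 299. Of the 644 genes called at least 2-fold lower, WT lay between for 441, of which 223 were nearer to CK and 218 nearer to KO. In 190 of the 845 and 113 of the 644 genes the low group was below 7.24, close to background. A difference between CK and KO thus mixes genes whose level stood apart from WT in one genotype, in the other, or in both.

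**Figure D2:**
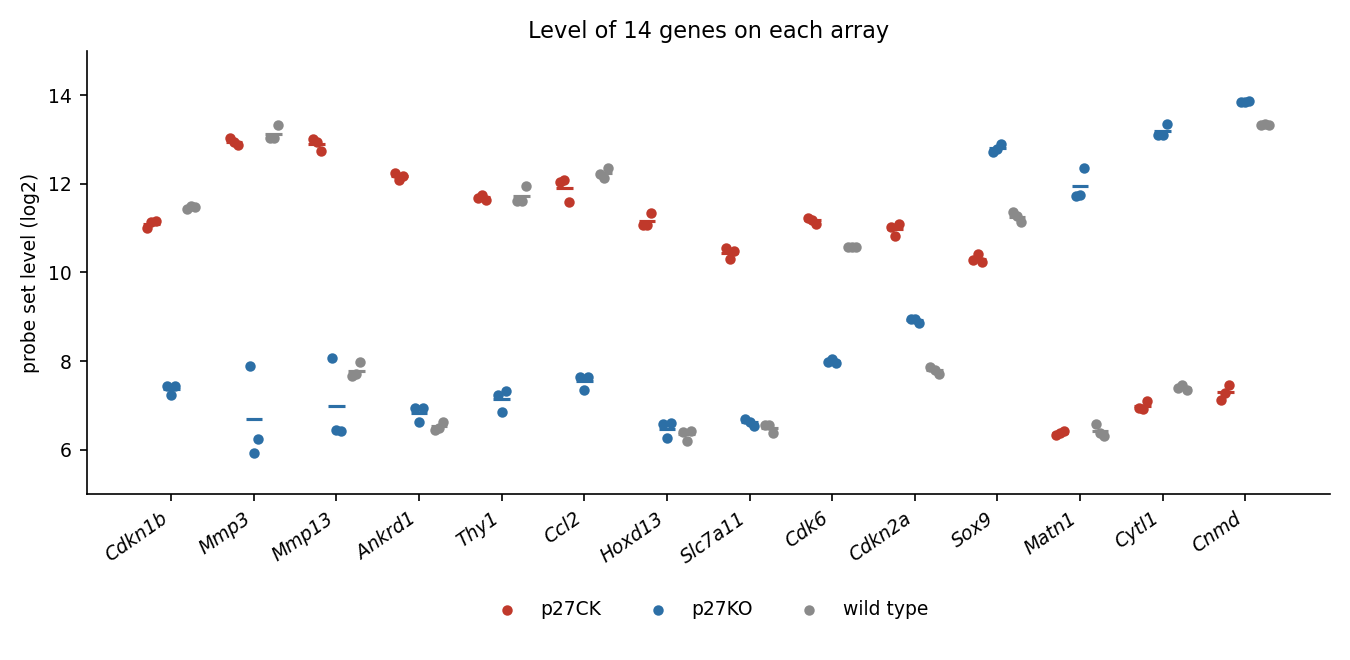
Level (log2) of 14 genes on each array, with CK in red, KO in blue and WT in grey. Each dot is 1 array and each bar the mean of 3. CK and KO do not overlap for any of the 14 genes, while WT lies with CK for Thy1 and Ccl2, with KO for Ankrd1, Hoxd13, Slc7a11 and Cnmd, and with CK for Matn1 and Cytl1.

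Among the regulators of G1, cells with p27CK had more RNA of Cdk6, of cyclin D1 and of 3 CDK inhibitor genes. Of 33 cyclins, CDKs and CDK inhibitors tested, 14 were higher, 7 lower and 12 without a call, with a median of 0.09 against -0.02 for all genes. Cdk6, a kinase partner of the D cyclins, read 11.24, 11.19 and 11.10 in CK and 7.99, 8.04 and 7.97 in KO (difference 3.18, SE 0.05). WT, at 10.58, lay between and nearer to CK. Cdkn1c, which encodes p57, the closest relative of p27, read 10.81, 10.79 and 10.58 against 8.47, 8.54 and 8.54 (difference 2.22, SE 0.07). WT was again between, at 9.92. Cdkn2a and Cdkn2b, the neighbouring INK4 genes, behaved in another way. Cdkn2a, which encodes p16INK4a and ARF, read 11.02, 10.81 and 11.09 in CK, 8.94, 8.94 and 8.87 in KO and 7.80 ± 0.08 in WT. Cdkn2b, which encodes p15INK4b, read 11.14, 11.27 and 11.26 in CK, 9.34, 9.34 and 9.29 in KO and 8.59 in WT. For both, WT was the lowest group, and their differences between CK and KO were 2.05 and 1.90. Cyclin D1 (Ccnd1) was 0.71 higher in CK (12.55, 12.45 and 11.92 against 11.61, 11.55 and 11.64), with CK replicate 3 the nearest to KO. Cdk2, the main kinase that p27 inhibits, read 9.52 ± 0.12 in CK and 9.55 ± 0.08 in KO, without a call. The 4 members that were lower by the most were Cables1, a CDK-binding adaptor, by -1.88, Ccng1, a p53 target, by -0.95, the CDK-activating kinase Cdk7 by -0.56 and the inhibitor Cdkn2c (p18) by -0.43.

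The pocket proteins and E2F factors, which carry the signal from CDKs to transcription, gave 13 higher, 4 lower and 8 without a call of 25 tested (median 0.23). Rbl2, which encodes p130, the pocket protein of quiescent cells, read 9.53, 9.66 and 9.78 in CK and 10.99, 10.96 and 10.89 in KO. Its difference was -1.29 (SE 0.07, limma adjusted p = 4.09e-08), and WT lay between, at 10.45. Mybl2 (B-Myb), which joins the MuvB core when cells divide, was 0.80 higher in CK, and the MuvB subunit Lin54 and the activator E2f1 were 0.70 and 0.66 higher. The MuvB subunit Lin52 was lower by -0.90. Rb1 and E2f4 had no call, with adjusted p = 0.0762 and 0.0567 by limma and differences of -0.18 and 0.14.

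Genes whose products turn over, move or bind p27 gave 15 higher, 6 lower and 16 without a call of 37 tested (median 0.05). Skp2, the subunit of the ligase that marks p27 for degradation, read 10.27, 10.45 and 10.28 in CK and 9.33, 9.26 and 9.74 in KO (difference 0.89, SE 0.11). Stmn1, stathmin, a protein that destabilises microtubules and that p27 binds, read 12.11, 11.88 and 11.55 against 9.76, 9.52 and 10.08 (difference 2.06, SE 0.16). Neither overlapped, and WT was between for both, at 9.82 and 10.52. Rhoa, the small GTPase whose activation p27 hinders, was at 13.70 in CK and 13.61 in KO, without a call (adjusted p = 0.122 by limma). Foxo3, which drives transcription of p27, had no call either, at 10.26 and 10.32, and Foxo1 was 0.59 higher in CK.

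Genes of DNA replication and of mitosis were higher in CK, although both genotypes had been without serum for 72 h. Of 58 tested genes of replication and G1/S, 41 were higher, 2 lower and 15 without a call, with a median of 0.46. The 4 largest differences were those of Dbf4, the activating subunit of the kinase Cdc7 (1.67), of the licensing factor Cdt1 (1.53), of the polymerase Pole (1.52) and of cyclin E1, Ccne1 (1.47). Ccne1 read 10.17, 10.19 and 9.80 in CK and 8.62, 8.39 and 8.76 in KO, with 9.32 in WT. Mcm2, a subunit of the replicative helicase, was 0.63 higher (11.22, 11.04 and 11.09 against 10.47, 10.41 and 10.58). The sliding clamp Pcna was at 12.42 ± 0.35 and 12.03 ± 0.03, without a call. The members that were lower were the origin recognition subunits Orc3 (-0.58) and Orc5 (-0.27).

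Of the 72 G2/M and mitosis genes that were tested, 52 were higher, 2 lower and 18 without a call, with a median of 0.65. Cenpe, a kinetochore motor, was at 8.98 ± 0.24 in CK and 7.33 ± 0.30 in KO, without overlap (difference 1.65, SE 0.16). Kif23, a motor of the central spindle, read 10.73, 10.47 and 10.09 against 8.77, 8.48 and 9.31 (difference 1.58). The checkpoint kinase Bub1 read 10.25, 10.16 and 9.82 against 8.41, 7.86 and 9.24 (difference 1.57, SE 0.28), and the spindle assembly factor Tpx2 was 1.47 higher. KO replicate 3 was the highest KO array for each of these 4 genes, and CK replicate 3 the lowest CK array. Cdk1, the kinase of mitosis, read 10.81, 10.76 and 10.46 against 10.26, 10.06 and 10.65, so the groups overlapped and there was no call. Without KO replicate 3 or CK replicate 3 Cdk1 was called, with differences of 0.52 and 0.46. The 2 members that were lower were Cdc25b, a phosphatase that activates Cdk1, and Fzr1 (Cdh1), the activator of the APC/C in G1, at -0.27 and -0.21.

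Replicate 3 of both genotypes stood apart for these genes. The mean level of the 72 mitotic genes was 9.65, 9.50 and 9.24 on the CK arrays and 8.71, 8.52 and 9.10 on the KO arrays, against 9.12, 9.06 and 9.31 in WT. CK and KO did not overlap, but CK replicate 3 and KO replicate 3 lay close together. KO replicate 3 was the highest KO array for 69 of the 72 genes and lay above CK replicate 3 for 28 of them, and CK replicate 3 was the lowest CK array for 65. Without KO replicate 3 the counts were 61 higher and 2 lower with a median of 0.82. Without each CK or KO array in turn, between 45 and 61 were higher and the median ran from 0.51 to 0.82. For the 58 replication genes the array means were 9.96, 9.83 and 9.69 in CK and 9.27, 9.20 and 9.45 in KO, and the count of higher genes ran from 35 to 43. The WT mean lay between the mutants for mitosis and near KO for replication (9.39, 9.37 and 9.46).

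**Figure D3:**
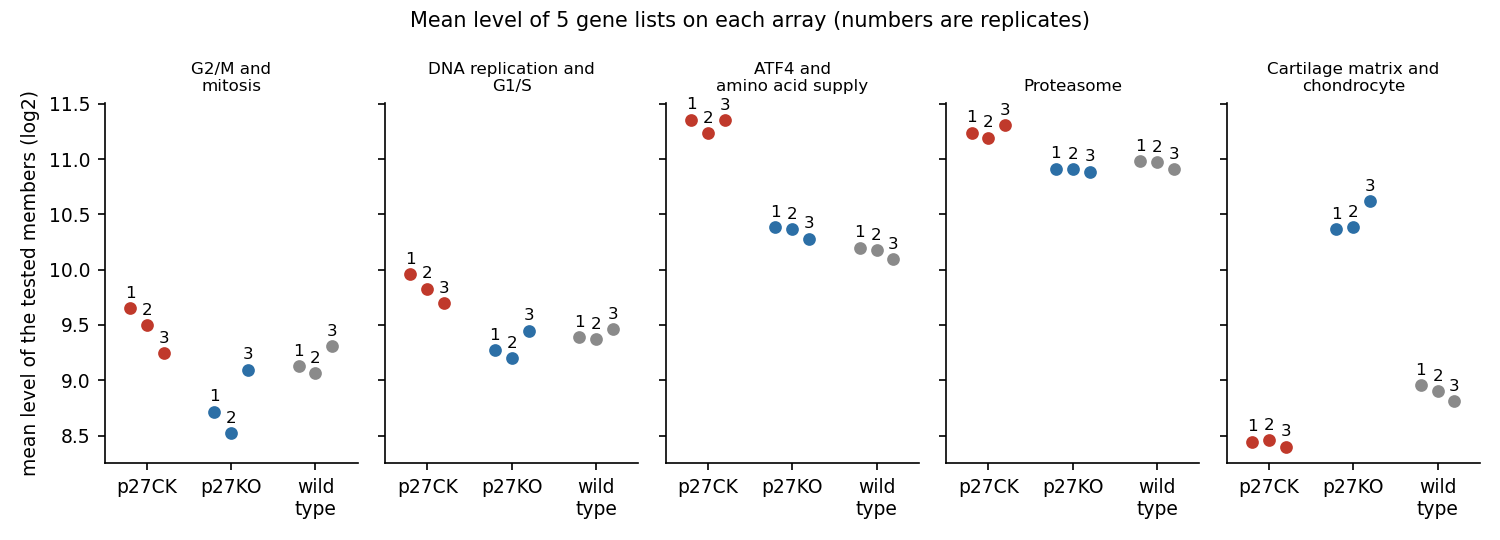
Mean level (log2) of the tested members of 5 gene lists on each of the 9 arrays, with CK in red, KO in blue, WT in grey and the replicate number above each dot. CK and KO do not overlap in any of the 5 lists. For mitosis KO replicate 3, at 9.10, lies close to CK replicate 3, at 9.24, while for ATF4 genes and cartilage genes the genotypes are far apart on every array.

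The shares of promoters with cell cycle motifs were computed over the 250 bases before each RefSeq start site, for the 9547 tested genes with such a promoter (12168 promoters, build GRCm38.p6, both strands). CCAAT, the site of NF-Y that recurs in mitotic promoters, was in 71.9% of the promoters of the mitotic list and in 34.9% of all. TTTGAA, the CHR element bound by the DREAM and MuvB complexes, was in 37.5% and 10.3%. Of 4 E2F forms searched (TTTGGCGC, TTTCCCGC, TTTCGCGC and TTTGCCGC), at least 1 was in 18.6% of promoters of the replication list and in 3.23% of all. Among the replication genes named above, the windows of Dbf4, Cdt1, Ccne1 and Mcm2 held none of these forms. These lists hold known targets of the factors, so the shares describe the lists and not the difference between CK and KO. The promoters of 3 of the mitotic genes named above are shown 5′ to 3′ up to the base before the start site, because their genes moved together across the arrays. Capitals mark CCAAT or its reverse complement ATTGG. Cenpe lies at chr3:135212313-135212562 on the plus strand, Kif23 at chr9:61946800-61947049 on the minus strand and Bub1 at chr2:127831860-127832109 on the minus strand.
Cenpe: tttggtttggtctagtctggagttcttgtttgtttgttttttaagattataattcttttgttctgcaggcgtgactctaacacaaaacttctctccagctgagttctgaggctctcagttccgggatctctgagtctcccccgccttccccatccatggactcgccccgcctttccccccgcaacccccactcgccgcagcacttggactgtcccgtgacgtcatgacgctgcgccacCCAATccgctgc
Kif23: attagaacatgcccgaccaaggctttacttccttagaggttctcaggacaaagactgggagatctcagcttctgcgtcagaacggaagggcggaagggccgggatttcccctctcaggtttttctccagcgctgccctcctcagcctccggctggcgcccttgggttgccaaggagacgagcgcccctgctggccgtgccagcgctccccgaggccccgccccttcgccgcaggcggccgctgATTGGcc
Bub1: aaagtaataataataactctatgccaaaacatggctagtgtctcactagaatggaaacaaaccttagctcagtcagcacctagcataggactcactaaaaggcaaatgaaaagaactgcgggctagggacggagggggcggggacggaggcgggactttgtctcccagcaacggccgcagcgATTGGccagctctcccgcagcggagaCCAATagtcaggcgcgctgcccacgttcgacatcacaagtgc
Cenpe and Kif23 held 1 match each and Bub1 held 2, and none of the 3 windows held TTTGAA.

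Cartilage genes were lower in CK by large amounts. Of 45 genes of cartilage matrix and chondrocytes with a probe set, 32 were tested, and 25 of them were lower, 1 higher and 6 without a call. The median was -1.93 over the tested members and -0.75 over all 45, since genes with a mean level under 7.24 were not tested. Sox9, the transcription factor that sets the chondrocyte fate, read 10.29, 10.42 and 10.24 in CK and 12.71, 12.79 and 12.90 in KO (difference -2.48, SE 0.08, limma adjusted p = 1.11e-09). Col2a1, the main collagen of cartilage and a Sox9 target, read 9.04, 9.08 and 9.01 against 12.56, 12.56 and 12.89 (difference -3.63, SE 0.08). Acan, the proteoglycan aggrecan, read 6.69, 6.67 and 6.56 against 8.74, 8.70 and 9.66 (difference -2.39). All 3 were without overlap, and KO replicate 3 was their highest KO array. WT stood between for Sox9 and Col2a1, at 11.25 and 9.47, nearer to CK, and was lowest for Acan, at 6.42. Acan and Matn1, for example, were below 7.24 in CK and WT. They reached the level for testing through KO alone, so their place among the 25 lower genes was fixed by it. The member that was higher in CK was Matn2, a matrilin found in many tissues, by 0.52. The mean level of the 32 genes was 8.44, 8.46 and 8.40 on the CK arrays, 10.36, 10.38 and 10.62 on the KO arrays and 8.95, 8.90 and 8.81 in WT. Leaving out each CK or KO array kept the count lower at 25 or 26.

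Genes of the general matrix went the other way more often than not. Of 87 tested collagens and other matrix genes, 51 were higher, 22 lower and 14 without a call (median 0.46). Beside Vcan, Dpt, Kera and Egfl6, described above, both chains of type I collagen, the main collagen of connective tissue, were higher. Col1a1 was at 13.08 ± 0.10 against 12.66 ± 0.06, and Col1a2 at 13.09 ± 0.02 against 12.48 ± 0.08. The proteoglycan decorin (Dcn) was at 13.87 ± 0.11 against 12.88 ± 0.24. The 4 members that were lower by the most were Omd (osteomodulin, -3.91), Ecm2 (-3.77), Smoc1 (-3.75) and Prelp (-2.84). Omd and Prelp are small leucine-rich proteoglycans of bone and cartilage, and Smoc1 is a calcium-binding matrix protein. WT was nearer to KO for Omd, Ecm2 and Smoc1, at 10.82, 9.32 and 10.12.

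Matrix proteases and their inhibitors gave 33 higher, 11 lower and 10 without a call of 54 tested (median 0.55), and 21 of them were at least 2-fold higher against 3 lower. Mmp3, Mmp13 and Mmp10 lie in the protease cluster of chromosome 9. Mmp10, stromelysin-2, read 11.68, 11.58 and 11.48 in CK and 7.36, 6.88 and 7.24 in KO (difference 4.42, SE 0.12), with 7.41 in WT. Adam19, a membrane sheddase, and Ctsk, the collagen-degrading protease cathepsin K, were 3.27 and 2.91 higher. Mmp14, the membrane protease that activates pro-Mmp2, read 12.85, 12.94 and 12.97 against 11.15, 11.10 and 11.16 (difference 1.78). Mmp2 itself was only 0.21 higher, and the inhibitor Timp1 was 0.51 higher. Reck, a membrane-bound inhibitor of Mmp14, Mmp2 and other metalloproteases, read 10.84, 10.86 and 10.73 in CK and 12.72, 12.73 and 12.78 in KO (difference -1.93, SE 0.05). The ADAMTS-like protein Adamtsl3 (-3.15), the membrane protease Mmp16 (-2.52) and the aggrecanase Adamts5 (-0.83) were lower too. WT lay between CK and KO for Reck, Adamtsl3 and Mmp16 and below both for Adamts5.

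The promoters of the 3 clustered proteases are shown because all 3 genes were among the 20 largest rises. They are the 250 bases before the RefSeq start, 5′ to 3′, on the plus strand of chromosome 9 in build GRCm38.p6. Capitals mark TGANTCA, the AP-1 site of Fos and Jun proteins. Mmp3 lies at chr9:7445572-7445821, Mmp13 at chr9:7272264-7272513 and Mmp10 at chr9:7502092-7502341.
Mmp3: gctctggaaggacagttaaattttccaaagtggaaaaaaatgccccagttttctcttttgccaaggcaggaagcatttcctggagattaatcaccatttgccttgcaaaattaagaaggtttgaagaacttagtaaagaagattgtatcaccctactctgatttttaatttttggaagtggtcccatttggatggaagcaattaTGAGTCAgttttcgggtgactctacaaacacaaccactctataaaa
Mmp13: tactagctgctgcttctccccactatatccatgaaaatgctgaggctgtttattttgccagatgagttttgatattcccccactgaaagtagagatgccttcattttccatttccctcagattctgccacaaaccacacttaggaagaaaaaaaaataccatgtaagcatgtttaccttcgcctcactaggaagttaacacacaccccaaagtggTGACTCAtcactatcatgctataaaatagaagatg
Mmp10: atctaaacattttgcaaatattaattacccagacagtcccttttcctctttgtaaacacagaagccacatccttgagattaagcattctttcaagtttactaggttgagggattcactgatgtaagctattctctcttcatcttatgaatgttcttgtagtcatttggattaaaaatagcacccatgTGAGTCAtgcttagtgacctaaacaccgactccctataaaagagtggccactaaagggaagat
Each held 1 match, whose first base was 46, 35 and 63 bases before the start site of Mmp3, Mmp13 and Mmp10. The motif was in 15.4% of the promoters of the protease list (6 of 39), in 7.86% of those of genes at least 2-fold higher in CK, in 5.09% of those at least 2-fold lower and in 4.42% of all. These shares were not tested, and that of the protease list describes the list and not the difference between CK and KO. The windows of Mmp14 and Ctsk had no match, and of 3 windows of Adam19 1 held a match, 131 bases before its start. Genes for AP-1 subunits did not share a direction. Fosl1 (Fra-1) read 10.91, 11.13 and 10.55 in CK and 8.57, 8.17 and 8.29 in KO (difference 2.52, SE 0.15), whereas Fos was lower by -0.75. Atf3, which can pair with Jun proteins, was 2.16 higher. Mmp3 was as high in WT as in CK, and Fosl1 in WT was at 9.96, between the mutants. The part of AP-1 in the levels of these proteases was not tested.

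Hox genes, which record the position of a cell along the body and limb axes, differed in direction between the clusters. Of 37 with a probe set, 17 were bright enough to test, with 10 higher, 6 lower and 1 without a call in CK. The 6 tested genes of the HoxA cluster numbered 7 or below were lower in CK, with differences from -0.22 to -2.01. The 2 tested HoxA genes numbered 8 or above and the 4 tested HoxD genes numbered 8 or above were higher. Hoxa9, Hoxd9, Hoxd10, Hoxd11 and Hoxd13 were below 7.24 in KO and WT. They passed the filter through CK alone, so their direction among tested genes was fixed by it. Tested or not, the 4 such HoxA genes with a probe set had differences from 1.61 to 1.92 and the 6 such HoxD genes from 1.28 to 4.68. HoxB genes did not follow the place in the cluster: of 4 tested genes numbered 7 or below 3 were higher, with Hoxb1 without a call, and the 1 tested gene above was higher too. The highest HoxB difference was 0.87. No HoxC gene, and no HoxD gene numbered 7 or below, was bright enough to test. Among genes numbered 7 or below, differences ran from 0.49 to 2.20 over 3 HoxC genes and from 0.08 to 1.13 over 3 HoxD genes. Over the 6 HoxC genes numbered 8 or above they ran from -0.07 to 1.94, the highest being Hoxc8 (7.9 in CK and 6.0 in KO). Hoxb1 was chosen after its values were seen. Hoxd13, the gene at the distal end of the limb, read 11.07, 11.07 and 11.33 in CK and 6.58, 6.26 and 6.60 in KO (difference 4.68, SE 0.11). Hoxd11 and Hoxd10 were 3.56 and 3.40 higher, Hoxa9 1.92 and Hoxd9 1.28. Hoxd13, Hoxd11 and Hoxd10 were between 6.03 and 6.82 in WT, as low as in KO, so CK was the group with distal HoxD transcripts. Hoxa3 read 7.26, 7.46 and 7.28 in CK and 9.19, 9.37 and 9.47 in KO (difference -2.01, SE 0.09), with 7.64 in WT. Hoxa2, Hoxa5 and Hoxa6 had differences of -1.96, -1.88 and -1.59 and WT levels of 8.43, 7.94 and 8.08. For these 4 anterior genes KO was the high group and WT lay near CK.

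**Figure D4:**
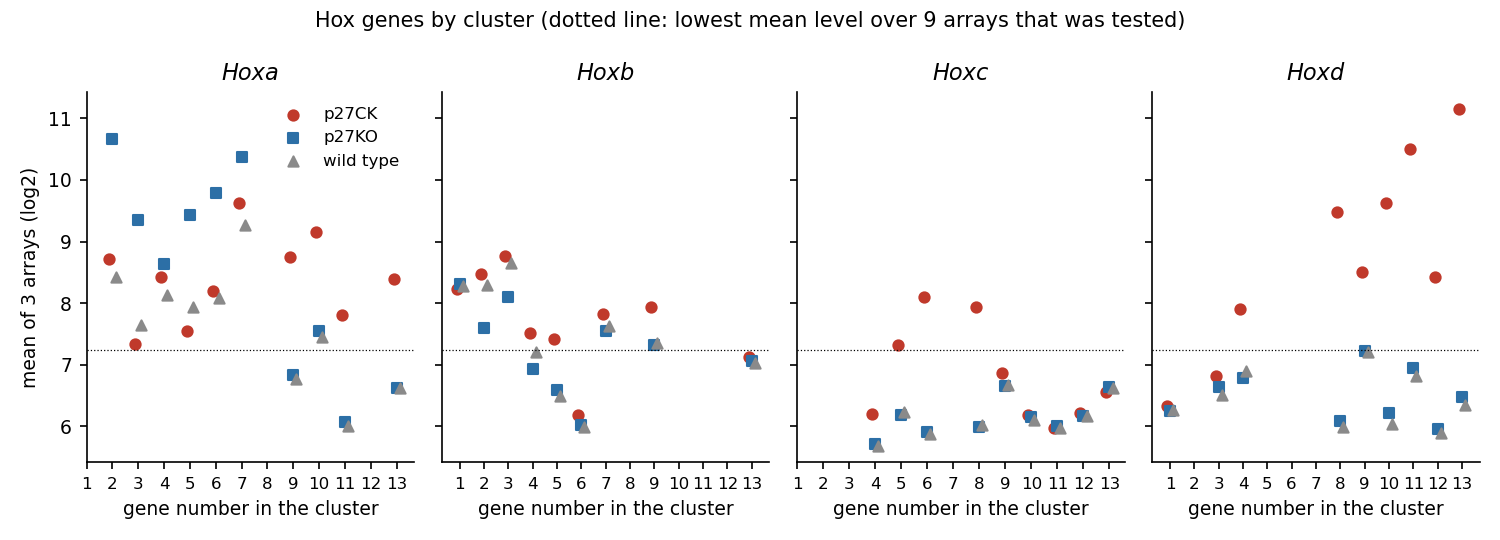
Mean level (log2, 3 arrays) of the 37 Hox genes with a probe set in CK (red circles), KO (blue squares) and WT (grey triangles), by cluster and gene number. The dotted line is 7.24, the mean level over 9 arrays needed for testing. Among HoxD genes numbered 8 or above CK stands over KO and WT, up to Hoxd13, and among HoxA genes numbered 7 or below KO stands over CK.

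Other transcription factors of regional identity were split as well, with 24 higher, 25 lower and 19 without a call of 68 tested. Over all genes tested 29.5% were higher and 32.7% lower, so the split is near that of the array. The homeobox genes Shox2, a limb and jaw factor, and En1, a factor of ventral limb and midbrain, were 2.86 and 2.34 higher in CK. Osr2 and Foxf2 were 2.82 and 2.26 higher. Osr2 and Foxf2 were highest in WT, at 12.96 and 11.19, while En1 was highest in CK, at 9.72. Pax9, a factor of the pharyngeal pouches, sclerotome and limb, read 6.79 ± 0.21 in CK, 10.88 ± 0.03 in KO and 12.66 ± 0.05 in WT (difference -4.10). Foxp2, Eya1 and Foxd1 had differences of -3.81, -3.26 and -3.16. The hindlimb factor Tbx4 had no call, at 7.24 and 7.28, and Tbx5 and Pitx1 were too dim to test. The embryos or body parts that gave each culture were not stated, and the part of tissue of origin in these differences was not tested.

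Signals and receptors between cells differed by large amounts and in both directions. Of 48 tested Wnt ligands, receptors and modulators, 17 were higher and 16 lower (median 0.03, or -0.09 with a filter at the 60th percentile of mean level). These counts are near the shares over all genes tested, 29.5% higher and 32.7% lower, so they do not set the list apart. The secreted antagonists Sfrp2 and Sfrp1 were 3.37 and 3.10 higher in CK. Frzb, which belongs to the same family, was at 7.55 ± 0.26 against 11.61 ± 0.35 (difference -4.06). The receptors Fzd9 and Fzd8 were lower by -4.02 and -3.94, and the agonist Rspo3 by -3.29. Axin2, a direct target of Wnt signalling, was 1.81 higher (9.59 ± 0.11 against 7.78 ± 0.27), and Nkd2, a feedback inhibitor, was 3.13 higher.

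TGF-beta, BMP and activin genes gave 19 higher and 23 lower of 51 tested (median -0.14, or -0.03 with no filter). Grem1, a secreted BMP antagonist, read 12.51, 12.61 and 12.71 in CK and 8.40, 7.95 and 7.85 in KO (difference 4.54, SE 0.12), with 9.26 in WT. The ligands Bmp2 and Inhba (activin A) were 3.65 and 3.45 higher, whereas Bmp4 was lower by -1.85. Id1, Id2 and Smad6, which BMP signalling induces, were lower, with differences of -1.56, -1.75 and -1.99 and no overlap. WT lay above KO for Id1 and Id2, at 11.41 and 12.91, and between but nearer to KO for Smad6, at 10.41.

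Of 49 tested receptor tyrosine kinases and ligands, 26 were higher and 18 lower. Hgf, the ligand of Met, read 10.43, 10.46 and 10.25 in CK and 6.25, 6.26 and 5.81 in KO (difference 4.27, SE 0.11), and Met was 1.77 higher. Pdgfd, Angpt2 and the VEGF receptor Flt1 were 3.79, 3.46 and 2.65 higher. Fgf18, a growth factor of cartilage and bone, was lower by -3.81, and the receptors Fgfr2 and Egfr by -1.82 and -1.69. Among 25 tested ERK feedback genes and ETS factors, 17 were higher and 6 lower (median 0.40). The feedback inhibitors Spry1 and Dusp4 were 1.55 and 1.44 higher, and Etv5 was lower by -1.57.

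The insulin-like growth factor axis, which signals growth to fibroblasts, had 13 higher, 2 lower and 6 without a call of 21 tested (median 0.71, or 0.23 over the 15 that passed a filter at the 60th percentile of mean level). Igf2 read 11.49, 11.46 and 11.02 in CK and 7.92, 7.79 and 8.86 in KO (difference 3.14, SE 0.24), and KO replicate 3 was nearest to CK. WT had the most, at 12.01. Igf1 was 1.33 higher. The binding proteins Igfbp3 and Igfbp6 were 3.80 and 3.24 higher and were low in WT, at 7.22 and 7.01. The receptor Igf1r had no call, at 11.70 ± 0.17 and 11.78 ± 0.17. The adaptor Irs1 read 10.98, 11.04 and 10.98 against 12.28, 12.24 and 12.24 (difference -1.25).

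Chemokines and cytokines gave 22 higher and 10 lower of 35 tested (median 0.31, or 0.19 with no filter). Ccl2 and Ccl7, neighbouring genes for monocyte attractants, read 12.04, 12.09 and 11.58 and 11.51, 11.52 and 11.35 in CK. On the KO arrays they read 7.65, 7.34 and 7.64 and 7.45, 7.02 and 7.50, and the differences were 4.36 and 4.14. WT was high for both, at 12.24 and 10.88. Cxcl10, which interferon induces, was 3.58 higher, at 10.20, 10.89 and 9.94 against 6.89, 6.73 and 6.66. The interleukin-1 receptor antagonist Il1rn read 8.16, 8.28 and 8.36 in CK and 12.10, 12.25 and 11.56 in KO (difference -3.70), and WT was at 7.72. Tnfrsf11b, osteoprotegerin, was lower by -2.20. In the synthesis of prostaglandins, the inducible cyclooxygenase Ptgs2 read 12.50, 12.45 and 12.61 in CK and 9.54, 9.32 and 9.26 in KO (difference 3.15, SE 0.08). The E2 synthase Ptges was 1.94 higher and the prostacyclin synthase Ptgis lower by -2.56.

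Genes for amino acid supply and the ATF4 response, which cells use when amino acids or folding capacity run short, were higher in CK almost throughout. Of 50 tested, 42 were higher, 2 lower and 6 without a call (median 0.88). Slc7a11, the cystine transporter, read 10.56, 10.30 and 10.48 in CK and 6.70, 6.64 and 6.55 in KO (difference 3.82, SE 0.08). The cationic amino acid transporter Slc7a3 was 3.92 higher (11.33, 11.15 and 11.10 against 7.41, 7.24 and 7.16). Both were low in WT, at 6.50 and 7.44. Chac1, which degrades glutathione, and Trib3, a pseudokinase, are classical ATF4 targets and were 2.90 and 1.92 higher. Asns, asparagine synthetase, was 1.08 higher (13.16, 13.12 and 13.15 against 12.06, 12.04 and 12.07). The alanine transaminase Gpt2 was 2.30 higher. The 2 members that were lower were Cbs, which makes cystathionine, at 7.72, 7.68 and 7.71 against 9.84, 10.03 and 10.16 (difference -2.30), and Shmt1, a cytosolic enzyme of the folate cycle (-0.29, with no call once chromosome parts were centred). The mean level of the list was 11.36, 11.23 and 11.35 in CK and 10.38, 10.37 and 10.28 in KO, with 10.20, 10.18 and 10.10 in WT, so KO lay near WT.

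Proteasome genes were higher in CK by small and even amounts. Of 40 tested, 31 were higher, 3 lower and 6 without a call, and the median was 0.44 with quartiles of 0.23 and 0.54. Psmb2, a subunit of the catalytic core, read 12.80, 12.95 and 12.87 in CK and 12.08, 12.06 and 12.09 in KO (difference 0.80). The activator Psme4 (PA200) was 1.12 higher and the deubiquitinating lid subunit Psmd14 0.74. The members that were lower were Psme1 (-0.72) and Psme2 (-0.29, adjusted p = 0.0325 by limma, from 0.0543 to 0.135 under 6 of the alternatives), subunits of the interferon-induced activator PA28, and the assembly chaperone Psmg2 (-0.81).

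Genes for other core machinery moved little. Of 56 tested genes for cytosolic ribosomal proteins, 27 were lower, 1 higher and 28 without a call, with a median of -0.13. Rps3a1 was lower by -1.69 (10.53, 10.21 and 10.53 against 12.16, 12.04 and 12.13) and Rpl37a by -0.74. Such genes have many near-identical processed copies, so their probes may read more than 1 locus. Of 84 tested spliceosome genes 22 were higher and 20 lower, and of 75 tested genes of the respiratory chain and ATP synthase 13 were higher and 25 lower. No gene of these last 2 lists was called at 2-fold, and their medians were -0.02 and -0.08. Ribosome biogenesis was as even, with 26 higher and 19 lower of 78. The shares over all genes tested were 29.5% higher and 32.7% lower.

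**Figure D5:**
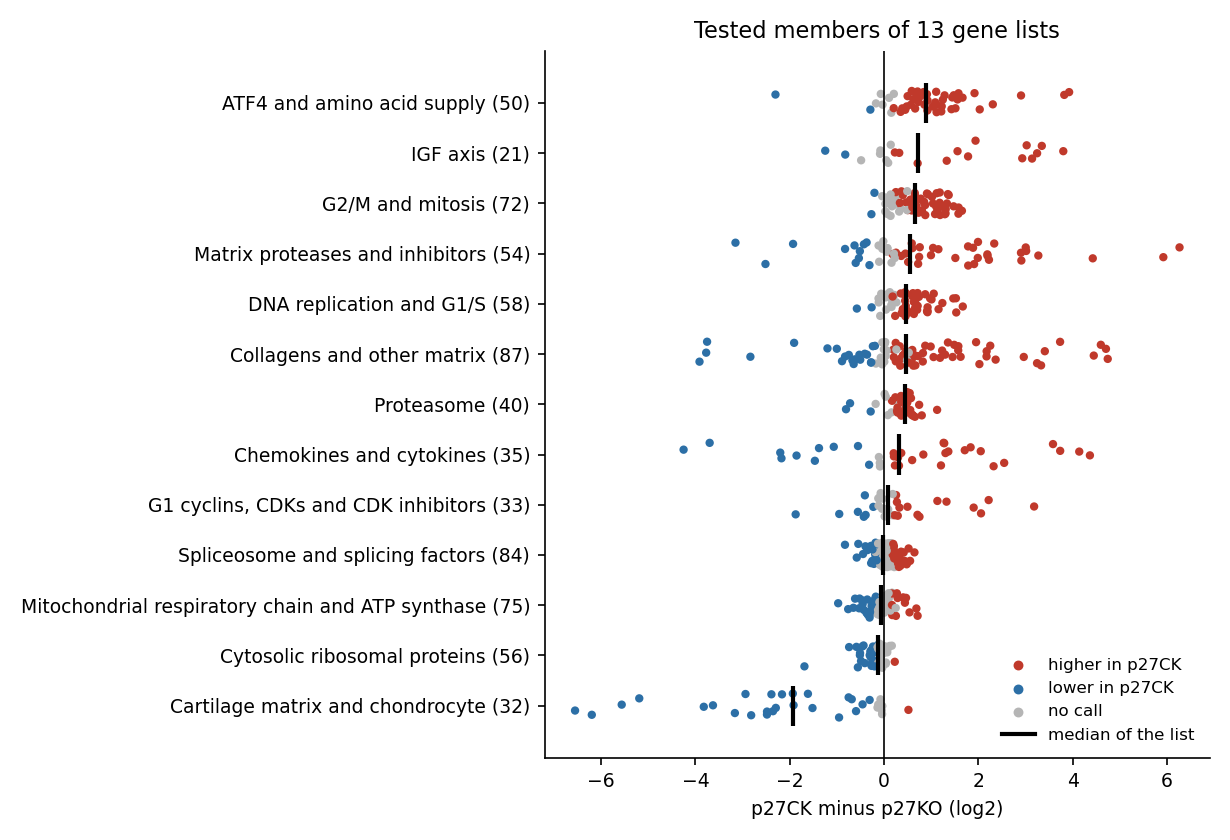
Difference between CK and KO (horizontal axis, log2) for each tested member of 13 gene lists, with the number tested in brackets. Red points are higher in CK, blue points lower and grey points without a call, and the black bar is the median of the list. The medians run from 0.88 for the ATF4 list to -1.93 for the cartilage list.

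Microtubule genes were examined because p27 binds stathmin outside the CDK complex. Of 47 tested microtubule genes 24 were higher and 12 lower (median 0.18), led by Map1b at 4.34 and followed by the motors Kif26b (2.36) and Kif5c (2.12).

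Contractile genes and targets of SRF and YAP were split, with 19 higher and 19 lower of 53 tested, near the 29.5% and 32.7% of all genes tested. Ankrd1 was 5.32 higher, as given above, whereas Ccn2 (CTGF), another target of YAP, was at 11.77 ± 0.13 in CK and 14.07 ± 0.04 in KO (difference -2.30). Acta2, smooth muscle actin, was lower by -0.44 and calponin (Cnn1) 1.81 higher. In focal adhesions, with 22 higher and 19 lower of 51, Parvb and Fblim1 were 3.47 and 3.03 higher and the collagen receptor Itga2 lower by -3.64. The beta1 integrin (Itgb1) had no call.

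Markers of cell types were read to check the label of fibroblasts. Of 14 tested fibroblast markers 7 were higher, 4 lower and 3 without a call in CK, and their mean level lay between 12.14 and 12.24 in CK and between 11.71 and 11.74 in KO. Col1a1, Col1a2, Dcn and Pdgfra, all higher in CK, were bright in both genotypes. So were Ddr2 and Pdgfrb, which were lower in CK by -0.48 and -0.41. The label holds by these, while Thy1 was bright in CK and WT and close to the testing level in KO. Of the defining markers of other types, Ptprc and Adgre1 (macrophage), Pecam1 and Kdr (endothelium), Epcam and Krt5 (epithelium) and Sox10 (glia) were between 5.75 and 7.06 in both genotypes, too dim to test. The epithelial cadherin Cdh1 was not tested either, but it read 6.70, 6.65 and 6.69 in CK and 7.57, 7.47 and 7.49 in KO, without overlap. Map2, a neural marker from the same list as Sox10, was bright enough to test. It read 9.42, 9.46 and 9.18 in CK and 7.66, 7.49 and 7.75 in KO (difference 1.72), with 10.57 in WT. The 5 tested skeletal muscle genes had no call by limma, with means of 7.57 to 7.63 in CK and 7.58 to 7.67 in KO. Single members of other lists moved. Erg, an ETS factor of endothelium and also of cartilage, read 7.17 ± 0.12 in CK and 10.81 ± 0.06 in KO (difference -3.64). Of the other tested endothelial markers Egfl7 was 0.68 higher, Tek lower by -0.29 and Vwf without a call (Vwf was chosen after its values were seen). Of the 2 tested macrophage markers Cd68 was 0.61 higher and Lyz2 lower by -1.23. Upk3b was lower by -1.34 and Trp63 by -0.70, while Msln and Krt19, of mesothelium and epithelium, were 1.79 and 1.53 higher. Mean levels over the tested markers did not overlap for endothelium (4 genes, 7.45 to 7.52 in CK and 8.24 to 8.30 in KO) or macrophages (2 genes, 7.97 to 8.21 and 8.26 to 8.59). For epithelium (4 genes) they were 7.77 to 7.90 and 7.63 to 7.65, and for neural cells (2 genes) 8.23 to 8.39 and 7.35 to 7.61. The mean of the 4 tested mesothelial markers lay between 8.25 and 8.32 in CK and between 7.76 and 7.81 in KO. For the 5 tested pericyte and smooth muscle markers it lay between 10.27 and 10.54 and between 10.07 and 10.29, which overlap. The part of other cells in the differences between CK and KO was not tested.

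Differences also followed chromosomes. The median difference was -0.26 over 311 tested genes of chromosome 18 and -0.20 over 664 of chromosome 1, and 0.14 over 481 of chromosome 15 and 0.12 over 362 of the X chromosome. On chromosome 1 111 genes were higher and 338 lower in CK, and on chromosome 15 226 were higher and 79 lower. In the last of 3 parts of chromosome 14 the median was -0.34, with 3 higher and 29 lower of 46. Centring each chromosome in 3 parts, an alternative chosen after seeing the data, called 7519 genes. The 40 tested genes nearest to Cdkn1b on chromosome 6 gave 11 higher, 12 lower and 17 without a call, with a median of -0.02. The neighbour Crebl2 was lower by -1.69 and Gprc5a was 1.15 higher, and 8 of the 40 were called at 2-fold. Over all genes tested 29.5% were higher, 32.7% lower and 12.4% called at 2-fold, so the split of the neighbours by direction is near that of the array.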

How the data were processed

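Mouse Affymetrix arrays of total RNA from quiescent p27CK, p27KO and WT MEFs were read from the deposited series table. The authors' deposited values are RMA log2 levels made with affy, per the submitters' processing notes, but they stand without a decimal mark, so the column as such holds other numbers. The mark was restored after the first digit, or after the second for numbers starting with 1. Values then ran from 4.28 to 14.4. With CK and KO taken separately, a total of 1558 pairs of a probe set and a genotype had arrays on both sides of 10. The median range of these pairs within their genotype was 0.268, against 8.92 with the mark always after the first digit. RMA includes quantile normalization, which hides a shift shared by all genes.

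Of 34760 probe sets, 21640 had 1 symbol in the platform annotation, 1321 several and 11799 none, and the first kind alone was used, with symbols updated through RefSeq. The brightest probe set stood for a gene, and genes under the 40th percentile of mean level were not tested. Ties within a genotype (143 genes in CK or KO, 238 in any genotype) were kept. Cdk6, Adam19, Axin2, Hgf, Nkd2, Fblim1 and Cxcl10, for example, had 3 identical WT values, which lowers the spread behind their SE and p-value. limma 3.58.1 (R 4.3.3; lmFit and eBayes) was fitted with 1 coefficient per genotype to all 9 arrays, so WT adds to the estimate of spread, and p-values were adjusted by Benjamini and Hochberg over 11962 genes, with 0.05 as threshold. On simulated data with 50 genes changed at each size, the CK against KO comparison over 11962 genes recovered 22% at a log2 change of 0.25, 72% at 0.5 and 100% at 1 and 2. It also called 6 unchanged genes. Far fewer genes changed there than were called in the real data, which makes the adjustment stricter. The rates are thus not those of the real comparison.

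Genes were named by a rule: Cdkn1b, the 20 largest rises and falls among called genes without overlap (clone and model names skipped), in each list its first 3 genes and up to 4 called members each way with the largest difference, and called neighbours of Cdkn1b. The lists and this rule were chosen with earlier results of these data known. Promoters are from RefSeq (GRCm38.p6). Figures were drawn with matplotlib 3.10.9 under Python 3.11.15. Alternatives covered the filter, probe set choice, normalization, variance model, arrays fitted, array weights, replicate block, ties, threshold and each array left out.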

Additional observations from a re-analysis of the deposited data

How the results depend on the processing

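Over 22 alternatives, of which 1 was chosen after seeing the data (centring the difference on each of 3 parts of a chromosome), the number of genes called ran from 5367 to 8274, against 7439. The lowest came from keeping the genes above the 60th percentile of mean level (7975 tested) and the highest from no filter (19937 tested). At least 2-fold calls fell from 1489 to 922 with the 60th percentile, where fewer genes were tested, and otherwise lay between 1436 and 1640. Median centring of the arrays moved all differences by 0.07 and gave 3031 higher and 4720 lower. Leaving out each array in turn gave 6788 to 7523 calls, 1477 to 1516 at least 2-fold, and a Cdkn1b difference between 3.66 and 3.77. Averaging the probe sets of a gene lowered the Cdkn1b difference to 1.60, since its dim probe set has the opposite sign. Replicate numbers did not pair the arrays: deviations of same-numbered CK and KO arrays correlated at 0.05, -0.30 and -0.09. With the replicate number as a block, 7291 genes were called, 1489 at 2-fold, and Cdkn1b differed by 3.72.

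Of 433 named genes, 41 changed their call in at least 1 alternative and 0 reversed. Of the genes described, Fzr1 lost its call when chromosome parts were centred, and Matn2 at an adjusted p under 0.01 by limma. Rb1, E2f4 and Pcna were called without CK replicate 3, with differences of -0.23, 0.17 and 0.55. Rhoa was called with trend and robust variances, at a difference of 0.09. List medians moved in 56 recalculations. With the 60th percentile filter the Hox median turned to -1.35, that of receptor tyrosine kinases fell to 0.03 and that of the IGF axis to 0.23. With no filter the cartilage median was -0.75. The skeletal muscle list gave no value at the 60th percentile. Levels near background and 3 arrays a genotype limit the precision.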

Other observations

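Genes of vitamin A handling held some of the wider differences outside the lists above. Crabp2, which carries retinoic acid to its nuclear receptor, read 11.15, 11.46 and 11.51 in CK and 7.48, 7.25 and 7.21 in KO, with 9.02 in WT (difference 4.06). The retinol transporter Stra6 was 2.52 higher in CK, and the thyroid hormone receptor Thrb was lower by -2.71. Over the retinoid and thyroid list 6 of 19 tested genes were higher and 7 lower, near the 29.5% and 32.7% of all genes tested. Adipocyte genes were split too, with 6 higher and 9 lower of 21. The lipoprotein lipase Lpl was 3.24 higher and the fatty acid carrier Fabp4 1.51 higher in CK. Pparg, the master factor of fat cells, read 8.27, 8.37 and 8.71 in CK and 10.22, 10.24 and 10.19 in KO (difference -1.77), and the lipid droplet proteins Cidea and Plin4 were lower by -3.96 and -2.27.

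Among genes of guidance and adhesion between cells, with 30 higher and 18 lower of 62, the cadherin Cdh3 was 3.58 higher in CK and the repellent ligand Slit2 2.96 higher. The semaphorins Sema3e and Sema3a were lower by -3.42 and -2.77, and Sema3a was highest in WT, at 12.87. Heparan sulfate enzymes also differed in pairs. The 6-O-sulfatase Sulf2 was 1.71 higher while Sulf1 was lower by -1.30, and the 6-O-sulfotransferase Hs6st2 was lower by -2.50.

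Interferon-induced genes gave 17 higher and 14 lower of 41, against 29.5% and 32.7% of all genes tested. Oasl2 and Usp18 were 2.92 and 2.70 higher in CK, and the antigen peptide transporter Tap1 and the RNA sensor Ddx58 (RIG-I) were lower by -0.67 and -0.72. Complement genes gave 3 higher and 8 lower of 15, and the C1 inhibitor Serping1 read 8.47, 8.64 and 8.18 in CK, 9.82, 9.91 and 9.56 in KO and 12.23 in WT.

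Genes of the NRF2 response did not share a direction, with 21 higher and 19 lower of 52, against 29.5% and 32.7% of all genes tested. Gclm, a subunit of the enzyme that starts glutathione synthesis, was 1.41 higher in CK, whereas the quinone reductase Nqo1 read 7.14, 7.13 and 7.62 in CK, 9.39, 9.45 and 9.55 in KO and 10.91 in WT. In the glycolysis and hypoxia list, with 25 higher and 10 lower of 48, the oxygen sensor Egln3 and the peptide adrenomedullin (Adm) were 3.31 and 3.24 higher and Vegfa was 1.32 higher, while lactate dehydrogenase A (Ldha) had no call. Of 20 tested imprinted genes 5 were higher and 9 lower in CK. The neighbours Zim1 and Peg3 were lower by -3.47 and -2.44 and the long RNA Meg3 by -1.71, and Phlda2 was 1.39 higher. Among p53 targets, with 9 higher and 13 lower of 32, Mdm2 and Bbc3 had no call. By at least 2-fold 4 were higher and 2 lower. Gadd45a, Dram1 and Plk3 were 2.10, 1.12 and 1.04 higher, and Cd80 and Perp were lower by -4.11 and -2.40.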
